A study of Homo sapiens with 24 samples.

Results

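TNFSF10, which encodes the death ligand TRAIL, its 4 cell surface receptors TNFRSF10A, TNFRSF10B, TNFRSF10C and TNFRSF10D, and the signalling proteins FADD, CASP8 and CFLAR were followed across all 24 arrays of the series. These 8 genes, of 20256 genes matched to a reference name, were found by their gene names among the spots of the arrays, which held 14 probes for them. They were selected on the measured log ratios of TNFSF10 and on the levels of the receptors in control cells, so every ratio and level below is a description without a test.

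TRAIL is a membrane ligand of the tumor necrosis factor family. TNFRSF10A (DR4) and TNFRSF10B (DR5) carry an intracellular death domain and pass the signal on, whereas TNFRSF10C (DcR1) and TNFRSF10D (DcR2) bind TRAIL without a working death domain and are known as decoy receptors. On ligand binding the adaptor FADD joins the death receptors and recruits the initiator caspase CASP8, and CFLAR (c-FLIP) competes with CASP8 in this complex. TNFSF10 is known as an interferon-induced gene and TNFRSF10B as a target of p53 and of the stress factor CHOP.

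Total RNA of treated cells (Cy5) was hybridised together with RNA of control cells (Cy3) on 2-colour Agilent arrays. The cells were the prostate cancer (PCa) lines PC3, DU145 and LNCap, the renal cell carcinoma lines A498 and 786O, and the head and neck squamous cell carcinoma lines FaDu and SAS. Transfected miRNAs were compared with a control miRNA: miR-145 in PC3, DU145 and LNCap, miR-143 in PC3 and DU145, miR-23b and miR-24 in PC3, miR-27b in PC3, 786O and A498, miR-375 in FaDu, and miR-29a in SAS. Knock-downs with si-CAV2 (A498 and 786O), si-LAMB3 (FaDu and SAS) and si-GOLM1 (DU145 and PC3) were compared with a control siRNA. Genistein, a soy isoflavone, was given to PC3 and DU145 at 25 uM for 4 days by the study's methods, which name a vehicle control where the labels say no treatment. Wogonin, a plant flavone, was compared with DMSO in SAS and FaDu, and the chemokine CXCL10 was compared with no treatment in 786O after 12 h and 24 h.

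Each line and treatment had 1 array, with no dye swap, so no replicate error exists and a gene was called by size at a log2 ratio beyond 1.0. The error given as ± is that of the scanner software for 1 array and covers technical noise only. A probe was measured where at least 0.5 of its spots were well above background in at least 1 channel, and between 53.2% and 68.9% of the spots of a channel met this. The siRNA arrays showed their target lower: CAV2 read -3.80 in A498 and -3.20 in 786O, and GOLM1 read -4.15 in PC3 and -3.02 in DU145. LAMB3 read -2.50 in FaDu and, short of the limit, -0.89 in SAS. KRT5 and DSG3 were well above background in all FaDu and SAS controls, and PAX2 in all renal controls and in no other line. The markers were otherwise less sharply divided. PAX8 was well above background in all renal controls and, at lower levels, in the 7 PC3 and 3 FaDu controls. Besides all FaDu and SAS controls, KRT6A was so in the 4 DU145 controls and in 2 of 7 PC3 controls. Its highest level in PC3 exceeded every SAS control. TP63 was well above background in 2 of 3 SAS controls, and DSG3 and CDH6 also in 1 PC3 control each.

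Of 192 values (8 genes on 24 arrays), 159 were measured. Of these, 9 were above 1.0 and 5 below -1.0, on 9 of the 24 arrays. Over all genes and arrays, 4.76% of values were above 1.0 and 3.86% below -1.0, and nothing is read from the members' counts, since the selection used these ratios. TNFSF10 accounted for 4 of the values above and 4 of those below the limit. TNFRSF10B and FADD were measured on all 24 arrays and passed the limit on none, and the brightest CFLAR probe also passed it on none. Of the values past the limit, the nearest to it was -1.02 for TNFSF10 in PC3 with miR-24. The nearest that did not pass were -0.99 for TNFRSF10D in DU145 with miR-145 and 0.98 for TNFRSF10B in PC3 with genistein.

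**Figure D1:**
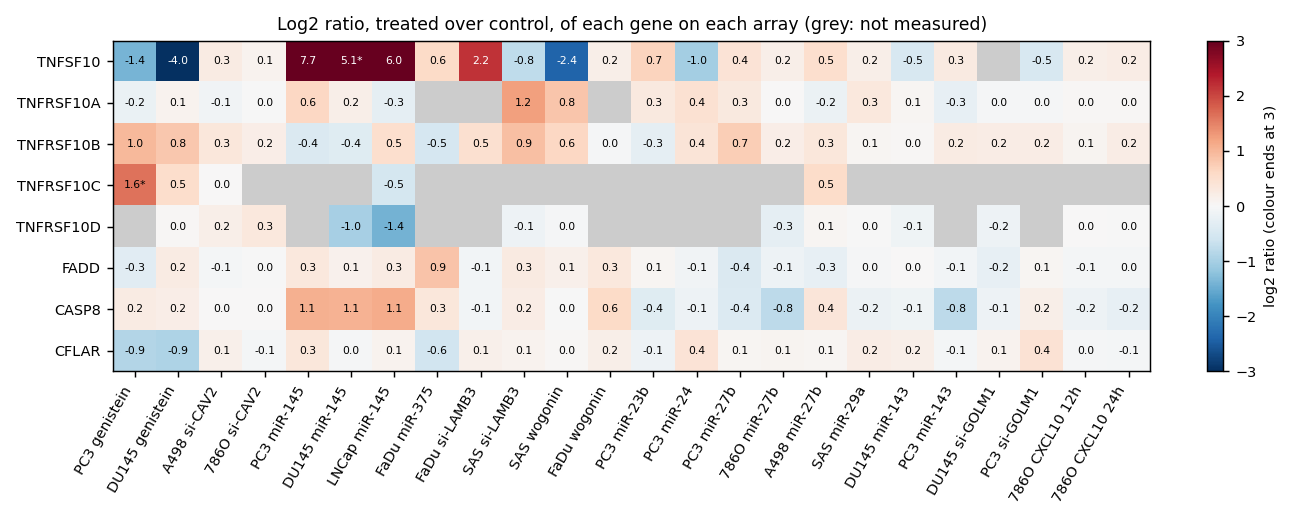
Log2 ratio (treated over control) of the 8 genes (rows, brightest probe) on the 24 arrays (columns). Grey marks values that were not measured and an asterisk a value with 1 channel not well above background. Among the darkest cells are TNFSF10 in the 3 miR-145 arrays (7.74, 5.05 and 6.0), in DU145 with genistein (-4.04) and in SAS with wogonin (-2.40).

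The ligand showed the widest range of the 8 genes. TNFSF10 was read by probe A_23_P121253, printed 10 times on each array at chr3:172223866-172223925 (hg19, minus strand), and by a second probe with 1 spot, A_33_P3226810, at chr3:172224226-172224285. Its log2 ratio ran from -4.04 to 7.74 with a median of 0.19 over 23 measured arrays, of which 11 lay within 0.5 of 0. In DU145 with si-GOLM1 both channels were too dim to measure it.

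With miR-145, TNFSF10 was higher in each of the 3 PCa lines. In PC3 the log2 ratio was 7.74 ± 0.78 (SD over 10 spots 0.26), a 213-fold higher signal than with control miRNA. In LNCap it was 6.0 ± 0.61 over 8 spots, or 64.1-fold higher. In DU145 it was 5.05 ± 0.53, or 33.2-fold higher on the deposited signals. The DU145 control channel was not well above background, so this fold is the measured ratio to a dim signal and not a firm bound. With normexp (offset 50) and loess the log2 ratios were smaller, 6.36 in PC3, 4.60 in LNCap and 2.34 in DU145. With loess and no background subtraction DU145 read 2.97. The deposited ratios ranked the gene 7th of 14272 (PC3), 37th of 14309 (LNCap) and 23rd of 14512 (DU145) measured genes from the highest. The second probe read 8.96 in PC3, 5.86 in LNCap and 5.99 in DU145, with the control channel not well above background in PC3 and DU145. On these arrays 8.46% (PC3), 3.56% (DU145) and 7.67% (LNCap) of all genes were above 1.0, and 1.77% were above it in all 3 lines.

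On no other miRNA array was the probe with 10 spots above 1.0. With miR-143, whose gene neighbours that of miR-145, TNFSF10 read -0.49 ± 0.46 in DU145 and 0.27 ± 0.25 in PC3. The second probe read 1.03 ± 0.62 and 0.39 ± 0.26 there, with a DU145 control that was not well above background (at least 1.08-fold). The probes thus differed in sign in DU145, at signals near background. In PC3 TNFSF10 read 0.68 ± 0.29 with miR-23b, 0.41 ± 0.30 with miR-27b and -1.02 ± 0.38 with miR-24. The second probe read -0.13, 0.56 and -3.06 on these arrays, but both of its channels were dim with miR-24 and its control was dim with miR-27b. In PC3 with miR-24, 12.8% of all genes were below -1.0, and with normexp and loess TNFSF10 read -0.27 there and did not pass. TNFSF10 read 0.58 ± 0.21 in FaDu with miR-375, 0.18 ± 0.34 in SAS with miR-29a, 0.50 ± 0.21 in A498 and 0.19 ± 0.20 in 786O with miR-27b.

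The mature sequences of the transfected miRNAs are shown because TNFSF10 was above the limit with 1 of the 7 and not with the other 6. They are those of RefSeq (GRCh38.p14), with the seed (bases 2 to 8) in capitals. The labels do not name the arm, and the arm usually loaded was taken.
hsa-miR-145-5p: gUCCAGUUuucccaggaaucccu
hsa-miR-143-3p: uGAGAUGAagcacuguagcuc
hsa-miR-375-3p: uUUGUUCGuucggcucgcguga
hsa-miR-23b-3p: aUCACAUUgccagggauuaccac
hsa-miR-24-3p: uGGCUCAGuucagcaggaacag
hsa-miR-27b-3p: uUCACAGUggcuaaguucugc
hsa-miR-29a-3p: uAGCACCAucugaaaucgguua
Each of the 7 seeds occurs once in this set, so for the arms taken no other sequence shown has the miR-145 seed. A part of the seed in the TNFSF10 ratios was not tested.

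Knock-down of LAMB3 went with opposite TNFSF10 ratios in the 2 lines. In FaDu TNFSF10 was 2.16 ± 0.29 (SD over 10 spots 0.08), 4.48-fold higher than with control siRNA, and the second probe read 1.90. It ranked 96th of 14294 genes and was 1.56 with normexp and loess. In SAS it was -0.75 ± 0.23 and the second probe read -1.43. On the FaDu array 5.11% of all genes were above 1.0. LAMB3 itself read -0.89 in SAS against -2.50 in FaDu, and the part of this in the difference was not tested. With si-CAV2 TNFSF10 read 0.25 in A498 and 0.09 in 786O, and with si-GOLM1 -0.47 ± 0.22 in PC3, where the second probe read -1.10 ± 0.25.

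TNFSF10 was lower with genistein in both PCa lines. In DU145 the log2 ratio was -4.04 ± 0.43 (SD over 10 spots 0.16), a 16.5-fold lower signal and the 5th lowest of 15220 measured genes. This fold is relative to the control of that array, whose TNFSF10 level (defined below) was 0.41. The other DU145 controls were at -5.38 to -4.62, so the fold is not one from a level common to DU145 controls. In PC3 the log2 ratio was -1.39 ± 0.32, or 2.62-fold lower. The second probe read -4.79 in DU145 and -1.75 in PC3. All genes below -1.0 made up 5.67% in DU145, 6.86% in PC3 and 1.1% in both lines. With no background subtraction and loess, 2 changes made together, the ratios were -3.27 in DU145 and -0.72 in PC3, and with normexp and loess -2.86 and -0.54. The PC3 value then no longer passed the limit.

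With the other plant compound, wogonin, TNFSF10 was below the limit in SAS and did not pass it in FaDu. In SAS the log2 ratio was -2.40 ± 0.30 (second probe -2.87), a 5.28-fold lower signal, on an array with 6.58% of genes below -1.0, and -1.75 with normexp (offset 50) and loess. In FaDu it was 0.18 ± 0.21 and the second probe read -0.69. The difference between the lines was not tested. With CXCL10 TNFSF10 read 0.19 ± 0.20 after 12 h and 0.22 ± 0.21 after 24 h in 786O, the line with the highest TNFSF10 level in control cells.

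**Figure D2:**
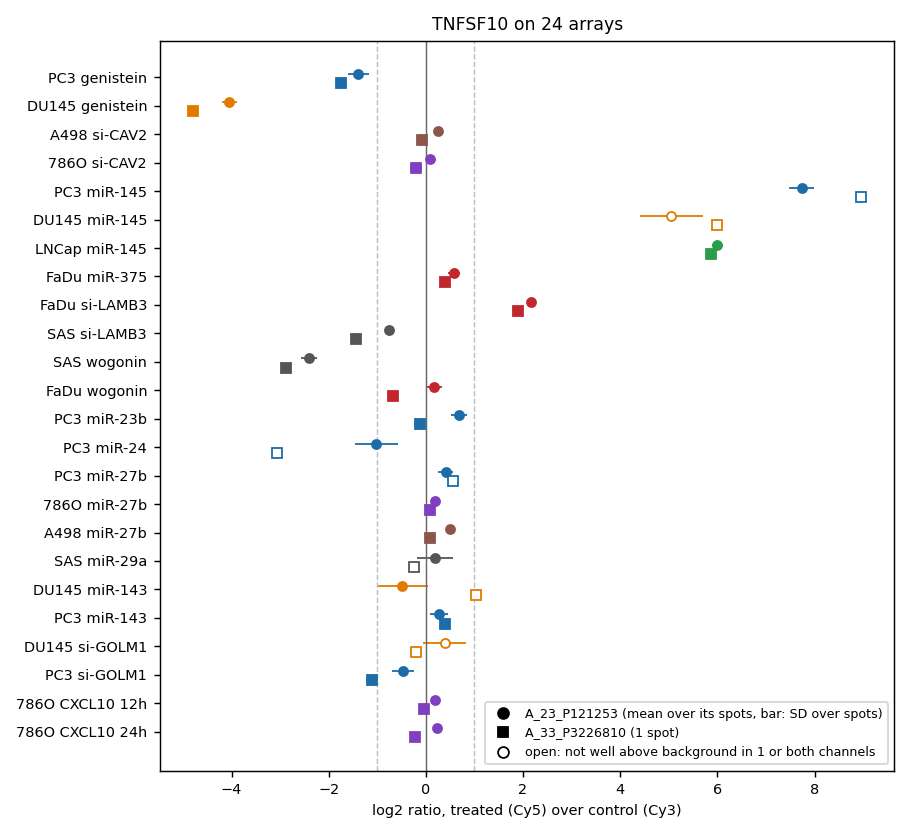
Log2 ratio of TNFSF10 on each of the 24 arrays, coloured by cell line. Circles are the means of the probe with 10 spots (bars, SD over spots), squares the probe with 1 spot, open symbols values without both channels well above background, and dashed lines the limits of 1.0 and -1.0. The 3 miR-145 arrays and FaDu with si-LAMB3 lie to the right of the limit on both probes, and both genistein arrays and SAS with wogonin to the left.

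The remaining probe, A_21_P0000113 (chr3:172235153-172235212, hg19), stands only on the 8 arrays of the second design and reads another TNFSF10 transcript. It was well above background only in 786O after 24 h of CXCL10, where it read -1.07 ± 0.33 while the probe with 10 spots read 0.22.

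Interferon-induced genes were above the limit on every array on which TNFSF10 was, and on others. Of a list of 25 such genes, 24 were above 1.0 in each line with miR-145, and the list's median was 4.91 in PC3, 4.29 in DU145 and 4.90 in LNCap against -0.05, -0.02 and -0.10 for all genes. The member that stayed within the limit was SP100 (-0.20, -0.11 and -0.09). IFIT2, an antiviral RNA-binding protein, read 7.45, 5.59 and 8.82, and MX1, an antiviral GTPase, 4.93, 4.52 and 1.43. FaDu with si-LAMB3 had 20 of 25 above 1.0 (median 1.91). SAS with si-LAMB3 had 11 of 23 (median 0.82), where 7.36% of all genes were above 1.0 and TNFSF10 was -0.75. SAS with miR-29a had 12 of 24 (median 0.95, all genes 4.99%) with TNFSF10 at 0.18, and FaDu with miR-375 had 14 of 25 (median 1.12, all genes 10.6%) with TNFSF10 at 0.58. On these last 3 arrays TNFSF10 did not pass the limit upward with the list.

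On the arrays with lower TNFSF10, part of the list was below the limit. With genistein 12 of 24 were below -1.0 in PC3 (median -0.96) and 7 of 24 in DU145 (median -0.46), and none was above 1.0. BST2, a surface protein that tethers virus particles, read -3.18 in PC3 and -2.15 in DU145. SAS with wogonin had 8 of 22 below -1.0 and 1 above 1.0 (median -0.69). PC3 with miR-24 had 5 of 23 below and 3 above (median -0.020). Listed genes were also below -1.0 where TNFSF10 was not, 5 of 24 in FaDu with wogonin (median -0.57, all genes 3.03%) and 4 of 25 in PC3 with si-GOLM1 (median -0.50, all genes 1.13%). Of the genistein lines, DU145 had the lower TNFSF10 ratio and the list median nearer to 0.

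Over the 24 arrays, the genes whose log ratios were most like those of TNFSF10 among 11340 genes measured on all arrays were IFI6 (Pearson r = 0.94), APOL2 (0.93) and IFITM4P (0.93). The 3 miR-145 arrays stand apart from the rest, and over the other 21 arrays r was 0.73, 0.74 and 0.70. Against the median of the interferon list, r was 0.61 and Spearman's rho 0.68 over the 20 measured arrays without miR-145. Without the 2 arrays farthest from the middle of the list, FaDu with si-LAMB3 and FaDu with miR-375, r was 0.46 over 18 arrays. The points share slides and, for some, control RNA, and no p is given.

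**Figure D3:**
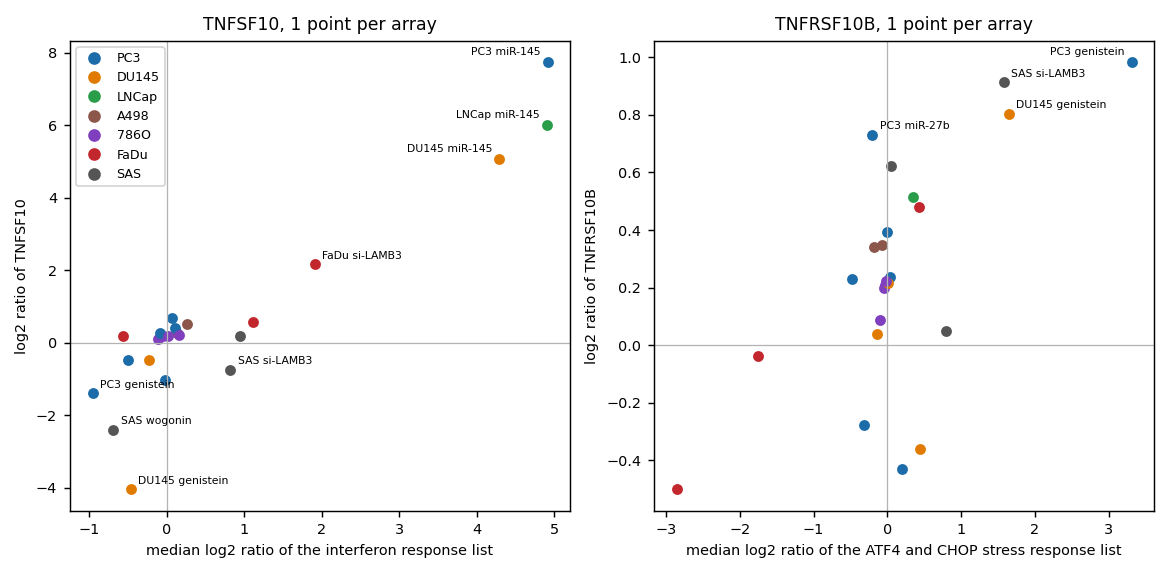
Left, log2 ratio of TNFSF10 against the median log2 ratio of the 25 interferon-induced genes, 1 point per array coloured by cell line. Right, log2 ratio of TNFRSF10B against the median of 10 ATF4 and CHOP stress genes. The 3 miR-145 arrays are at the upper right of the left panel, and both genistein arrays and SAS with si-LAMB3 at the upper right of the right panel.

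The sequence before the start of TNFSF10 is shown because interferon-induced genes were above the limit on every array on which TNFSF10 was. On others, such as SAS with si-LAMB3, part of them passed it and TNFSF10 did not. Promoters of interferon-induced genes often hold a binding site of interferon regulatory factors. The letters GAAA, any 2 bases and GAAA again were searched on both strands in the RefSeq promoters (250 bases before to 50 after the start). A match was found in 1255 of 35116 promoters (3.57%), and in 14 of the 19 genes of the interferon list with an entry, against 4.38% of all genes with an entry. The 250 bases before the TNFSF10 start, chr3:172523431-172523680 (GRCh38.p14, minus strand, read in the direction of transcription), hold 1 match in capitals, on the opposite strand, from position -187 to -178 relative to the start.
TNFSF10 upstream: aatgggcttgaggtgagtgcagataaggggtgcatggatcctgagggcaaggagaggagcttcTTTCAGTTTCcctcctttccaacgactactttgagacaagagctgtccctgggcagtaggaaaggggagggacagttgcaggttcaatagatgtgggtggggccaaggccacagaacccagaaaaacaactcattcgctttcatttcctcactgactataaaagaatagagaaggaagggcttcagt
Of the 3 CASP8 promoters, the one at chr2:201233213-201233512 held 1 match, which began 3 bases before the start. The 4 CFLAR promoters and the FADD promoter held none. A match is a description of the letters and not a site of binding.

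Among the signalling genes, CASP8 by its brightest probe was above the limit on the miR-145 arrays and on no other. Its brightest probe (A_24_P157087, chr2:202151838-202151897, hg19) read 1.07 ± 0.23 in PC3, 1.05 ± 0.23 in DU145 and 1.12 ± 0.24 in LNCap, 2.10-fold, 2.07-fold and 2.18-fold. The 3 lines differed by less than the error of each value. The second probe (A_24_P148499, chr2:202136256-202136315) read 0.74, 0.54 and 1.78, above the limit in LNCap only. It also read 1.10 ± 0.86 in FaDu with wogonin, with its control channel not well above background. The miR-145 ratios of the brightest probe lay close to the limit. With normexp (offset 50) and loess together they were 0.90, 0.88 and 0.78, short of it. The lowest CASP8 ratios were -0.80 in 786O with miR-27b and -0.79 in PC3 with miR-143, where the second probe read -0.24 and 0.10.

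The genes most like CASP8 over the 24 arrays were DDX60L (r = 0.81), IFIT5 (0.78) and PHF11 (0.77). Over the 21 arrays without miR-145, r was 0.46, 0.25 and 0.29, and against the median of the interferon list it was -0.060. In FaDu with si-LAMB3, where 20 of the 25 listed genes passed 1.0, the brightest CASP8 probe read -0.08. The second CASP8 probe read 0.92 ± 0.58 there, with its control channel not well above background.

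FADD, the adaptor, had the narrowest range. Its probe (A_23_P86917, chr11:70053305-70053364, hg19) lay within 0.5 on 23 of 24 arrays, from -0.43 ± 0.21 in PC3 with miR-27b. The exception was 0.85 ± 0.22 in FaDu with miR-375. The most similar genes were CD83 (r = 0.83), RCAN1 (0.81) and the mitochondrial ND1 (0.78).

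Of the death receptors, TNFRSF10B had its highest ratio in PC3 with genistein, followed by SAS with si-LAMB3 and DU145 with genistein, and passed the limit on no array, and TNFRSF10A passed it on 1. TNFRSF10B (DR5; chr8:22877776-22877835, hg19, minus strand) read 0.98 ± 0.22 in PC3 and 0.80 ± 0.22 in DU145 with genistein, 1.98-fold and 1.75-fold. It read 0.91 ± 0.22 in SAS and 0.48 ± 0.21 in FaDu with si-LAMB3, 0.73 ± 0.21 in PC3 with miR-27b and 0.62 ± 0.21 in SAS with wogonin. The lowest values were -0.50 ± 0.21 in FaDu with miR-375 and -0.43 ± 0.21 in PC3 with miR-145. With miR-145 it was also -0.36 in DU145 and 0.51 in LNCap, so its sign differed between lines in which TNFSF10 was higher throughout.

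Genes of the ATF4 and CHOP stress response were described beside TNFRSF10B, which CHOP is known to induce. With genistein 10 of the 10 listed genes were above 1.0 in PC3 (median 3.31) and 8 of 10 in DU145 (median 1.65), where 9.4% and 5.65% of all genes were. DDIT3, which encodes CHOP, read 3.71 in PC3 and 2.62 in DU145. In SAS with si-LAMB3 7 of 10 were above 1.0 (median 1.58). In FaDu with miR-375, which had the lowest TNFRSF10B value, 10 of 10 were below -1.0 (median -2.86), as were 13.4% of all genes. In PC3 with miR-27b the list's median was -0.20 while TNFRSF10B read 0.73. In FaDu with wogonin 8 of 10 were below -1.0 while TNFRSF10B read -0.04, and in SAS with miR-29a 5 of 10 were above 1.0 while it read 0.05.

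Over the 24 arrays r between TNFRSF10B and the stress list's median was 0.66 (rho 0.45), and 0.44 without PC3 with genistein and FaDu with miR-375. Over the 21 arrays without miR-145 r was 0.79 (rho 0.64), and 0.63 without the same 2 arrays. The genes most like TNFRSF10B were VEGFA, an angiogenic growth factor (r = 0.89), EPRS1, a tRNA synthetase (0.80), and ATXN2L (0.79). Without the miR-145 arrays r was 0.90, 0.82 and 0.73 over 21 arrays.

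TNFRSF10A (DR4; chr8:23049253-23049312, hg19, minus strand) was measured on 21 arrays, of which 18 lay within 0.5. It was above the limit once, at 1.22 ± 0.23 in SAS with si-LAMB3 (2.33-fold), the array on which TNFSF10 was -0.75. With normexp and loess this value was 0.96 and did not pass. It read 0.84 ± 0.22 in SAS with wogonin and 0.31 ± 0.21 in SAS with miR-29a. In PC3 with miR-145 it was 0.62 ± 0.21, and in DU145 and LNCap 0.16 and -0.26. The most similar genes were PSMA7 (r = 0.74), CINP (0.72) and RNF32-DT (0.71), over 24 arrays that include the 3 FaDu arrays on which TNFRSF10A was too dim to be measured. In SAS the ratios of the ligand and of TNFRSF10A had opposite signs with si-LAMB3 and wogonin and the same sign with miR-29a.

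The decoy receptor TNFRSF10D (DcR2; chr8:22993127-22993186, hg19, minus strand) was measured on 14 arrays. It was -1.43 ± 0.24 in LNCap with miR-145, 2.69-fold lower, where 1.46% of all genes were below -1.0. In DU145 with miR-145 it was -0.99 ± 0.22, just short of the limit. PC3, the third line with miR-145, gave no measured value. On the other 12 measured arrays it ran from -0.28 to 0.31. The other decoy, TNFRSF10C (DcR1; chr8:22974483-22974542, hg19), was measured on 5 arrays, at 0.53 ± 0.27 in DU145 with genistein, 0.01 and 0.55 in A498 with si-CAV2 and miR-27b, and -0.52 ± 0.23 in LNCap with miR-145. In PC3 with genistein the control was not well above background and the measured 1.64 ± 0.71 gives at least 1.90-fold. That bound holds for the deposited signals only: the ratio was 0.28 with normexp and loess and 0.40 with loess and no background subtraction, and neither passed the limit. In LNCap with miR-145 TNFRSF10D thus passed the limit downward and TNFRSF10C did not. The genes most like TNFRSF10D were MOCS2 (r = 0.70), DTD1 (0.69) and SLC35F3 (0.68), and those most like TNFRSF10C were ZSCAN21 (0.70), LYSMD4 (0.66) and MUSK (0.62). These r include the arrays on which the decoys were too dim to be measured.

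CFLAR gave different answers on its probes. The brightest, A_23_P156807 (1 spot), read -0.89 ± 0.22 in PC3 and -0.93 ± 0.22 in DU145 with genistein and lay within 0.5 on 21 arrays. A_23_P209394 (chr2:202000731-202000790, hg19) read -0.55 and 0.10 on the genistein arrays, and A_24_P120115 (chr2:202025198-202025257) 0.20 and -0.29. On the miR-145 arrays the order turned: the brightest probe read 0.33 in PC3, -0.04 in DU145 and 0.10 in LNCap, where A_23_P209394 read 1.82, 0.10 and 1.15 and A_24_P120115 read 1.73, 0.01 and 1.12. The last 2 probes thus gave a higher CFLAR in PC3 and LNCap and not in DU145.

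A_23_P209394 was also below -1.0 in SAS with wogonin (-1.69 ± 0.27), FaDu with miR-375 (-1.37 ± 0.24) and FaDu with wogonin (-1.08 ± 0.24). A_24_P120115 read -0.99, -0.86 and 1.31 there, the last with its control channel not well above background. A_24_P120115 alone was above 1.0 in PC3 with miR-24 (1.86 ± 0.28) and miR-23b (1.12 ± 0.25), where A_23_P209394 read 0.38 and 0.23. Counted with A_23_P209394 in place of the brightest probe, chosen after seeing the data, 11 values of the 8 genes were above and 8 below the limit.

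The brightest CFLAR probe shared a run of 34 bases with a probe of METTL21A, another gene of the same chromosome, whose ratios had r = 0.93 with it over 24 arrays. None of the other 13 probes of these genes shared 20 or more bases with a probe of another gene. The brightest probe correlated at r = 0.28 and 0.36 with the other 2 CFLAR probes of both designs, which had r = 0.64 with each other. The 3 genes most like it, KCNT1 (r = 0.97), SGSM2 (0.96) and LDHAL6A (0.96), shared no such run with it. The part of the shared run in its ratios was not tested.

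**Figure D4:**
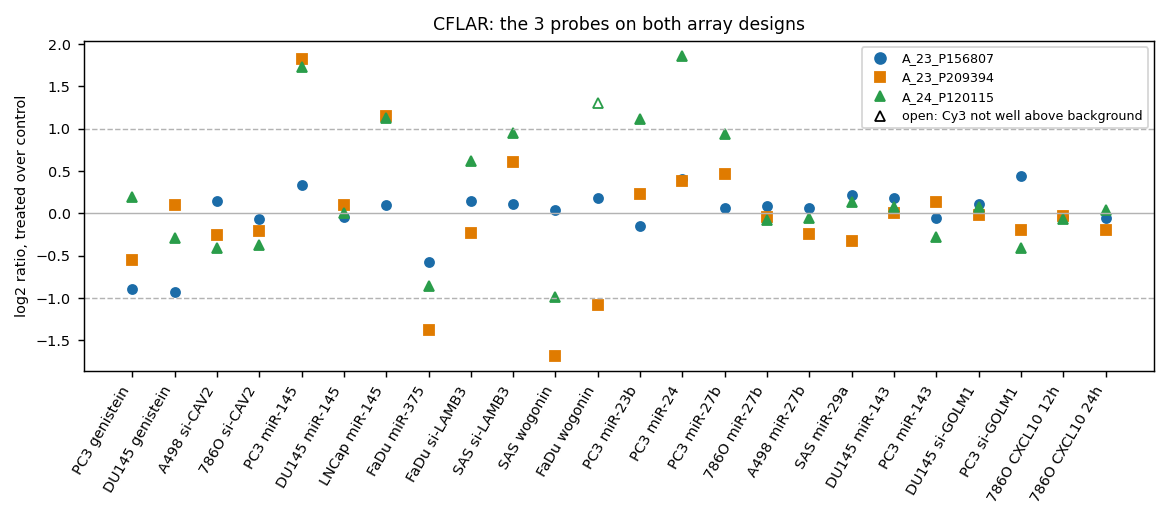
Log2 ratio of the 3 CFLAR probes found on both array designs, on each of the 24 arrays (dashed lines, limits of 1.0 and -1.0). Both A_23_P209394 (squares) and A_24_P120115 (triangles) are above 1.0 in PC3 and LNCap with miR-145, where A_23_P156807 (circles) is at 0.33 and 0.10.

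Other genes of the extrinsic apoptosis pathway were read from a list of 22. Over the 24 arrays, 23 of their measured values (4.62%) were above 1.0 and 20 (4.02%) below -1.0, shares close to those of all genes (4.76% and 3.86%). Genes that passed the limit in every line of a treatment given to more than 1 line included the following. FAS, the receptor of the related death ligand FASLG, was higher in all 3 miR-145 lines, at 3.11 ± 0.35 in PC3, 1.17 ± 0.23 in DU145 and 3.27 ± 0.37 in LNCap. FAS was also higher with si-LAMB3 in FaDu (1.59 ± 0.25) and SAS (1.37 ± 0.24). TNFRSF21, the death receptor DR6, was lower on both of those arrays (-1.55 ± 0.25 and -1.79 ± 0.26).

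TNFRSF11B, osteoprotegerin, a secreted protein that can bind TRAIL, was lower with genistein in PC3 (-1.32 ± 0.33) and DU145 (-1.30 ± 0.45). CASP9, the initiator caspase of the mitochondrial pathway, was lower with wogonin in SAS (-1.47 ± 0.25) and FaDu (-1.30 ± 0.24). CASP10, BID and XIAP were among those that did not pass it in every line of such a treatment, and FASLG had no measured value. With miR-145, NF-kB targets, among them BIRC3, were above 1.0 in 9 of 10 in PC3, 1 of 10 in DU145 and 9 of 9 in LNCap. Their median ratios were 1.96, 0.44 and 4.85. Their median level in control cells (defined below) was -4.74 in LNCap, against 1.22 in PC3 and 1.43 in DU145. A gene counted as measured with only the treated channel well above background. The LNCap count and median may therefore rest on ratios to dim controls, and the size of the response was not compared between lines. In DU145, where 1 of 10 targets passed 1.0, the CFLAR probes stayed near 0. A relation between the CFLAR probes and these targets was not tested. The targets did not follow the members on all arrays. In SAS with si-LAMB3 10 of 10 were above 1.0 (median 2.01) with TNFRSF10A at 1.22, but in LNCap with miR-145 TNFRSF10A read -0.26, and in DU145 with genistein 5 of 10 were above (median 1.13, all genes 5.65%) with TNFRSF10A at 0.11 and no CFLAR probe above 1.0.

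The level of each gene in control cells was read from the Cy3 channel as log2 signal relative to the 75th percentile of the array. Levels of 1 probe can be compared between lines and not between genes. The lines have between 1 and 7 control channels, which come from different experiments and slides.

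TNFSF10 was highest in the renal line 786O, from 2.69 to 4.09 (n = 4). A498, at 0.20 and 1.71, had the next highest median but overlapped with DU145, of which 1 control was at 0.41. It was -1.83 to -0.92 in FaDu (n = 3), -3.69 to 0.13 in SAS (n = 3), -3.27 in LNCap (n = 1) and -3.51 to -2.25 in PC3 (n = 7). DU145 had the lowest median (-4.85, n = 4), and 2 of its 4 controls were not well above background. 786O lay above every other line without overlap, whereas SAS overlapped with FaDu, LNCap, PC3 and DU145.

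The 4 DU145 controls did not share 1 level of TNFSF10. The control of the genistein array stood at 0.41, and the controls of miR-145, si-GOLM1 and miR-143 at -5.38, -5.07 and -4.62. The genistein and miR-145 controls lay on the same slide and differed by 5.79. Only 5 of 14702 genes measured in the genistein control exceeded all other DU145 controls by more than TNFSF10 did (5.03). None of the 25 interferon-induced genes exceeded them by over 1.0 (highest 0.56). After genistein the Cy5 signal of TNFSF10, relative to the same Cy3 percentile, was -3.63 in DU145 and -4.13 in PC3. These values are of another dye than the control levels and were not compared with them.

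Of the 5 lines with both kinds of control, untreated or DMSO controls had more TNFSF10 than every transfected control in 4 lines. In SAS the level was 0.13 with DMSO, -1.54 with control siRNA and -3.69 with control miRNA. In FaDu these levels were -0.92, -1.83 and -1.38. In 786O untreated cells were at 3.30 and 4.09 and transfected controls at 2.69 and 2.85. PC3 was the exception, with -2.74 in the genistein control and -2.25 in the si-GOLM1 control. The other genes were counted likewise. FADD and CFLAR were below every transfected control in 3 of 5 lines and above in 1, and CASP8 below in 2 and above in 1. TNFRSF10B was below in 2 of 5, TNFRSF10A in 2 of 4 and TNFRSF10D in 1 of 3, and TNFRSF10C was above in its 1 line. The share over all genes was not computed, so nothing is read from these counts. Transfection and the other conditions of each experiment cannot be told apart.

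The receptors differed between lines in which of them were present. TNFRSF10D was at 1.31 to 2.40 in DU145 (n = 4), 2.21 in LNCap, 0.85 to 1.36 in SAS (n = 3), 0.94 and 1.73 in A498 and -0.079 to 2.40 in 786O (n = 4). In none of the 7 PC3 and 3 FaDu controls was it well above background. TNFRSF10A was not well above background in any FaDu control either, and was measured in every control of the other 6 lines, from -2.63 to -1.51 in 786O up to -0.34 to 0.86 in DU145. The 2 lines without a TNFRSF10D signal thus differed in TNFRSF10A, at -1.42 to -0.17 in PC3.

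TNFRSF10C was well above background in the control of LNCap (-2.21), both A498 controls (-3.91 and -3.63) and 1 of 4 DU145 controls, that of the genistein array (-4.25). In PC3, 786O, FaDu and SAS it was so in no control. TNFRSF10B was present in all 24 controls, from 2.14 in 786O to 3.99 in A498. The A498 controls (3.81 and 3.99) lay next to the highest of DU145 (3.79). FADD was highest in FaDu, at 5.31 to 6.13, against 3.37 to 4.47 in the other lines. CASP8 was lowest in FaDu (-2.93 to -1.94) and LNCap (-2.56) and ran from -1.48 to -0.43 elsewhere.

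**Figure D5:**
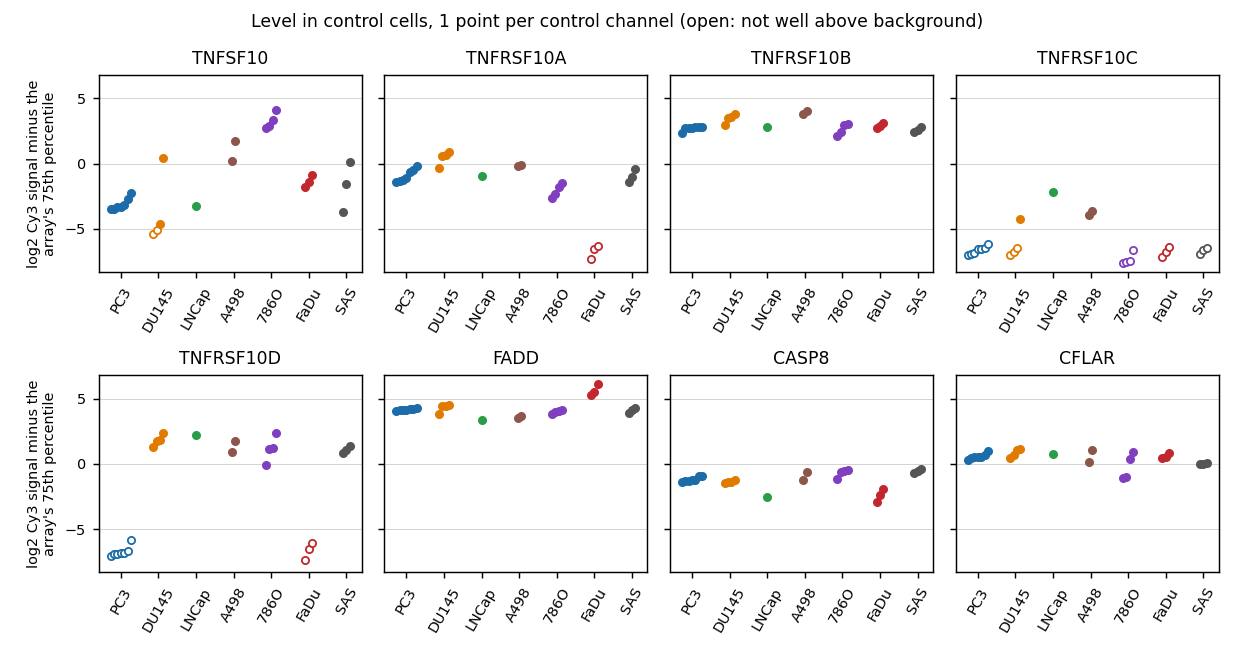
Level of each gene in control cells by cell line, as log2 Cy3 signal minus the 75th percentile of the array, 1 point per control channel. Open points were not well above background. TNFRSF10D has only open points in PC3 and FaDu, TNFRSF10A only in FaDu, and TNFSF10 in DU145 has 1 point at 0.41 and 3 between -5.38 and -4.62.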

How the data were processed

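Two-colour arrays of 24 samples were used, 16 of 1 Agilent design (slides 1 and 2) and 8 of another (slide 3). The authors deposited, beside a technical error score of each log ratio, the output of Agilent Feature Extraction 10.7.3.1 (submitters' processing notes). Per the file headers, the intensity of each channel had been corrected for background and dye. The deposited log10 ratio (Cy5 over Cy3) was multiplied by 3.32 to log2, and the deposited matrix of the same log10 ratios differed by 0 from it. Control spots and outlier-flagged spots were left out, and spots of 1 probe were averaged. Each gene was represented by its brightest probe, on both designs where possible. Names were matched to RefSeq (GRCh38.p14; 29122 probes), and coordinates of probes are those of the array annotation on hg19. Cy3 levels are log2 signals minus the 75th percentile over 35649 shared probes. A fold with a dim control was computed against the control's own signal or the array's lowest signal well above background, whichever was higher. With the lowest signal it is a lower bound, and with the control's own signal it is the measured fold. The limit of 1.0 is a choice of size. Calculations used Python 3.11.15 and, for alternative normalizations, limma 3.58.1 in R 4.3.3, and were tested on simulated data. The members, the gene lists and their rule (3 most similar genes per member, lists by counts and at most 4 genes, pathway genes called in every line of a treatment) were chosen with earlier results of these data known. Alternatives were other background corrections and scalings, probes, filters and limits. The deposited p-values of the software were not used. The number of arrays limits the precision. Some values of the lists and 1 probe sequence are not reported here.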

Additional observations from a re-analysis of the deposited data

Results flagged for a closer look

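Knock-down of LAMB3 gave TNFSF10 ratios of opposite sign in 2 lines, 2.16 in FaDu and -0.75 in SAS. The difference was not tested, since each line had 1 array. The second TNFSF10 probe had the same signs.

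Among 21 sets of control channels (a gene in DU145, 786O or PC3), 3 held a value flagged as far from the others by Dixon's criterion. The levels were used to select the genes, and the sets mix kinds of control and slides. No chance rate can therefore be given, and the flags are a description. TNFSF10 in the control of the DU145 genistein array was at 0.41, the highest of 4. FADD in the same control was at 3.84, the lowest of 4. TNFRSF10B in the control of the PC3 miR-143 array was at 2.36, the lowest of 7.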

How the results depend on the processing

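No paired analysis was possible because each line and treatment had 1 array, and for the same reason no replicate could be left out. Of the 8 genes, 9 values were above and 5 below the limit, with TNFSF10 on 4 arrays each way. With normexp (offset 50) and loess these were 4 and 3, with TNFSF10 below on 2 arrays, and without background subtraction and with loess 5 and 3, with TNFSF10 below on 2. After subtracting the mean of other treatments, 8 values were below, and with CFLAR read by A_23_P209394 also 8. A limit of 0.5 gave 24 above and 13 below, with TNFSF10 above on 7 arrays. A limit of 1.5 gave 5 above and 2 below, with TNFSF10 below on 2. Under median centring, all spots kept, the matrix values, no filter, both channels well above background and the mean over probes, these counts stayed within 1.5 times. No value past the limit changed sign under any alternative. Of the 14 values, 7 stayed past the limit with normexp and 8 without background subtraction. TNFSF10 in PC3 read -0.54 with genistein and -0.27 with miR-24 under normexp, and TNFRSF10C in PC3 with genistein read 0.28. TNFSF10 with miR-145 in DU145 read 2.34. Of 24 spans of control levels between lines under other scalings, 11 moved by over the median SD between controls of a line. Signal over background limits low values.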

Other observations

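The control channels of PC3 with miR-23b, miR-24 and miR-27b differed by an SD of 0.20 to 0.21 on the log2 scale over 18120 probes, against 0.35 to 1.05 for all other pairs of PC3 controls. The labels do not say whether these 3 arrays shared 1 control RNA, so their values may not be independent.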
